A study of Rattus rattus with 10 samples.

Results

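The course of 10 genes of the NF-kB pathway was followed in whole rat testis over a day of treatment with gamendazole or lonidamine. They were taken by symbol: the subunits Nfkb1, Nfkb2 and Relb, the inhibitors Nfkbia and Nfkbib, the nuclear IkB proteins Nfkbiz and Bcl3, and the feedback genes Tnfaip3, Ripk2 and Birc3. All probe sets that the platform annotation gives these symbols were used, 13 of the 31042 on the array, for 10 of 14217 named genes. Where a gene has several, the brightest stands for it, and all 10 of these passed the filter on low signal, set at 116.2 units. Nfkb2, Nfkbiz and Ripk2 passed it through treated arrays alone, since their highest vehicle signals were 83.6, 63.8 and 97.6 units.

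The animals were 60 day old male Long-Evans rats given 1 intraperitoneal dose. The groups were gamendazole at 6 mg/kg, lonidamine at 25 mg/kg and the vehicle, buffered DMSO, which carried no drug. Testes were taken at 4, 12 and 24 h in each group, and at 0 h with vehicle alone, and each treatment and hour had 1 Affymetrix Rat230_2 array, 10 in all. The labels do not state how many animals stood behind an array or whether RNA was pooled, and their organism field reads Rattus rattus. Both drugs are indazole carboxylic acids, and gamendazole differs from lonidamine by a trifluoromethyl group and by an acrylic acid in its side chain. Their doses differ, so the drugs are given side by side and not as compounds at matched dose.

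NF-kB is a family of transcription factors that wait in the cytoplasm, bound by IkB proteins, until a signal from a receptor of tumour necrosis factor, interleukin-1 or a microbial product sets them free. Several of the genes they switch on are their own brakes, IkB alpha (Nfkbia) and A20 (Tnfaip3) above all, so that a pulse of activity tends to close itself. Other targets, such as Nfkb1, Nfkb2 and Relb, are subunits of the next round. In the testis the pathway is known in Sertoli cells, which nurse the germ cells, and in macrophages of the interstitium.

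The arrays were alike in general quality. Median signal lay between 110.2 and 124.5 units, and the 3' to 5' signal ratio lay between 1.85 and 1.998 for beta-actin and between 0.723 and 0.853 for GAPDH. Log2 signals correlated at r between 0.978 and 0.981 among vehicle arrays and between 0.962 and 0.979 between treated and vehicle arrays. The 8 germ cell markers on the array summed to 165606 to 184782 units on gamendazole arrays, to 168927 to 183487 on lonidamine arrays and to 189703 to 199043 on vehicle arrays, which fits the labelled tissue, and the treated arrays lay below all vehicle arrays. None of the 8 tested germ cell markers passed the averaged test with either drug. In bulk tissue, fewer cells of a type and less RNA per cell cannot be told apart. By the instrument records the arrays fell into 3 hybridisation runs, and of the treated arrays gamendazole 4 h alone did not share a run with the vehicle array of its hour.

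In 6 of the 10 genes, Nfkb1, Relb, Nfkbia, Nfkbiz, Tnfaip3 and Ripk2, all 6 treated arrays lay above all 4 vehicle arrays. Over all 17549 tested probe sets this held for 4.39%. The inhibitor Nfkbia, with Nfkbiz and Tnfaip3, was highest at 4 h after gamendazole, whereas the 3 subunits were highest at 12 h. After lonidamine, Nfkbia, Nfkbiz, Tnfaip3 and the subunit Relb were highest at 12 h, and the subunits Nfkb1 and Nfkb2 at 24 h. Nfkbib and Birc3, both bright on every array, differed from vehicle by less than 1.5-fold at every hour.

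**Figure D1:**
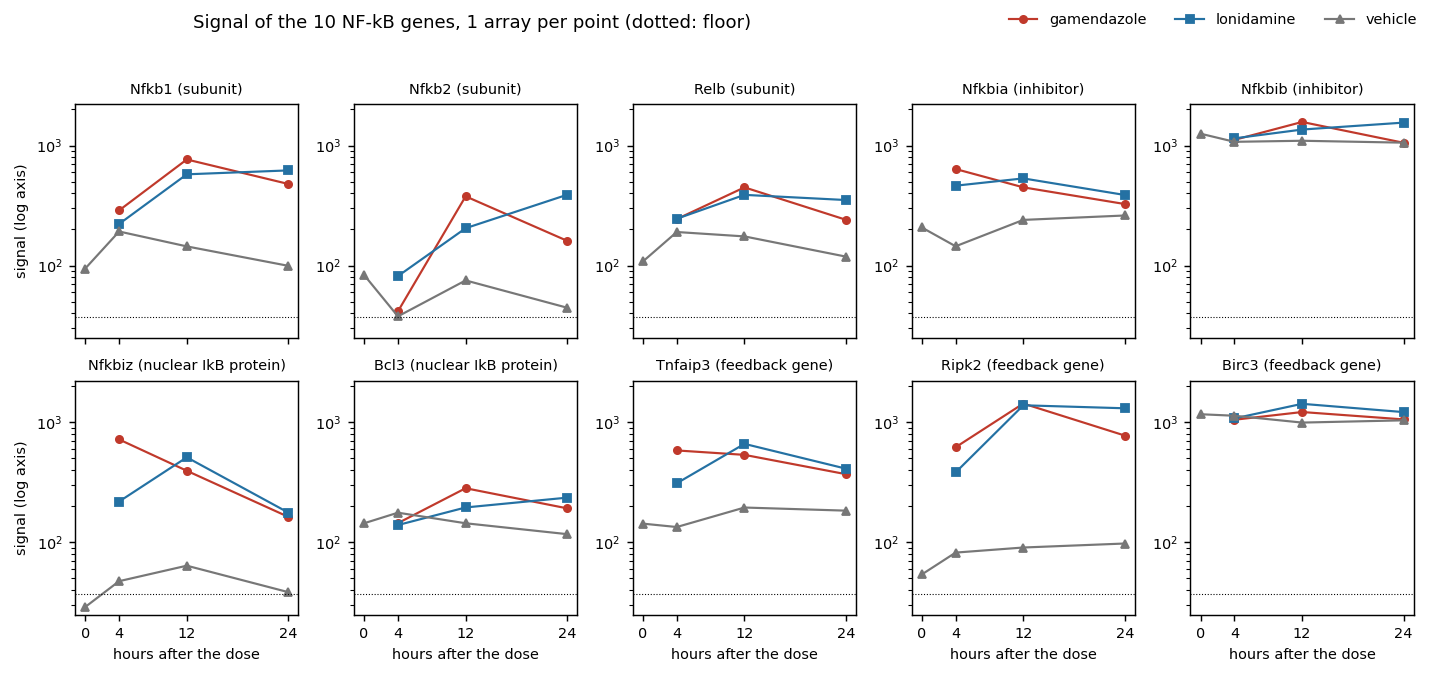
Signal in arbitrary units on a log axis against hours after the dose for the brightest probe set of each of the 10 genes, with 1 array per point; red circles are gamendazole, blue squares lonidamine and grey triangles vehicle, and the dotted line is the floor of 37.1. Ripk2 reached 1429.3 and 1382.6 units at 12 h on the gamendazole and lonidamine arrays, against 90.4 on the vehicle array, while the 3 lines of Birc3 and of Nfkbib run close together.

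Among the subunits, Nfkb1 codes for p105 and p50, the DNA-binding partner in the most common NF-kB dimer. Its signal was 288.3, 765.8 and 478.7 at 4, 12 and 24 h on the gamendazole arrays and 222.3, 576.0 and 620.8 on the lonidamine arrays. The vehicle arrays of 0, 4, 12 and 24 h read 94.6, 192.4, 144.6 and 99.6. The treated arrays did not overlap with the vehicle arrays, and the 4 h arrays of both drugs lay closest to them. Against the vehicle array of the same hour the ratio was 1.498, 5.30 and 4.81 with gamendazole and 1.16, 3.98 and 6.23 with lonidamine.

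Nfkb2 codes for p100 and p52, the subunit of the non-canonical branch. Its signal was 41.6, 377.6 and 160.9 on the gamendazole arrays and 81.8, 204.9 and 389.2 on the lonidamine arrays, against 83.6, 37.8, 75.3 and 44.6 on the vehicle arrays. The 12 h and 24 h arrays of both drugs lay above every vehicle array, and the 4 h arrays lay among them. At 4 h the gamendazole and vehicle arrays were both close to the floor of 37.1 units, so the ratio of 1.1005 there sets no limit on a change. Later ratios to same-hour vehicle were 5.01 and 3.61 with gamendazole and 2.72 and 8.73 with lonidamine.

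Relb, the partner of p52 in the same branch, read 244.1, 448.5 and 240.8 on the gamendazole arrays and 245.7, 388.4 and 351.7 on the lonidamine arrays. On the vehicle arrays it read 108.3, 190.5, 175.1 and 118.8. All treated arrays were higher than all vehicle arrays, though the 4 h arrays of both drugs exceeded the vehicle array of 4 h by only 1.28-fold and 1.29-fold. The ratios at 12 and 24 h were 2.56 and 2.03 with gamendazole and 2.22 and 2.96 with lonidamine.

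The inhibitors did not move as a pair. Nfkbia, whose product holds NF-kB in the cytoplasm and is rebuilt after each pulse, read 637.5, 448.7 and 325.7 on the gamendazole arrays. It read 463.1, 532.6 and 387.5 on the lonidamine arrays, against 207.9, 144.9, 240.3 and 261.5 on the vehicle arrays. Treated and vehicle arrays did not overlap. The ratio to the highest vehicle array was 2.44, 1.72 and 1.25 with gamendazole and 1.77, 2.04 and 1.48 with lonidamine. The ratio to same-hour vehicle was 4.40, 1.87 and 1.25 with gamendazole and 3.20, 2.22 and 1.48 with lonidamine. Nfkb1, by contrast, had its smallest ratio at 4 h with either drug. The vehicle array of 4 h was the lowest vehicle array for Nfkbia and the highest for Nfkb1, which enters both sets of ratios.

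Against all 4 vehicle arrays together, Nfkbia was 3.06-fold, 2.15-fold and 1.56-fold higher at 4, 12 and 24 h with gamendazole and 2.22-fold, 2.55-fold and 1.86-fold higher with lonidamine. The corresponding values for Nfkb1 were 2.27-fold, 6.02-fold and 3.76-fold with gamendazole and 1.75-fold, 4.53-fold and 4.88-fold with lonidamine. With this wider baseline Nfkb1 was still lowest at 4 h with either drug, and Nfkbia was highest at 4 h with gamendazole but at 12 h with lonidamine.

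Nfkbib codes for IkB beta, an inhibitor that is less tightly tied to NF-kB activity. It read 1115.3, 1572.0 and 1054.3 on the gamendazole arrays and 1147.9, 1359.2 and 1552.6 on the lonidamine arrays, against 1255.0, 1074.1, 1096.2 and 1056.9 on the vehicle arrays. The groups overlapped, with 3 of the 6 treated arrays above all vehicle arrays. The largest ratio to same-hour vehicle was 1.47, on lonidamine 24 h.

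The nuclear IkB proteins bind NF-kB on DNA and alter which genes it switches on. Nfkbiz, IkB zeta, is itself a rapid target of interleukin-1 and Toll-like receptor signals. It read 718.0, 393.8 and 162.7 on the gamendazole arrays and 218.3, 509.6 and 176.6 on the lonidamine arrays, against 28.9, 47.4, 63.8 and 38.4 on the vehicle arrays. Every treated array was at least 2.55 times as high as the highest vehicle array, and gamendazole 4 h was the highest of all. The ratio to same-hour vehicle was 15.1, 6.17 and 4.24 with gamendazole and 4.61, 7.99 and 4.60 with lonidamine. The other Nfkbiz probe set stayed below the floor on all 10 arrays and gave no comparison.

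Bcl3, a partner of p50 and p52 homodimers, has 3 probe sets that differed. The brightest read 144.3, 281.8 and 191.6 on the gamendazole arrays and 139.1, 194.9 and 235.2 on the lonidamine arrays, against 143.9, 176.3, 143.9 and 116.8 on the vehicle arrays. The 4 h arrays of both drugs lay within the vehicle range and the later arrays above it. The second probe set read 93.0, 359.1 and 206.3 on the gamendazole arrays and 125.1, 299.0 and 349.9 on the lonidamine arrays, against 41.1, 99.7, 68.0 and 74.2 on the vehicle arrays. Its ratios to same-hour vehicle, up to 5.28 on gamendazole 12 h, were wider than those of the brightest set, which reached 2.01 on lonidamine 24 h. The third was too dim to be tested. Both tested sets lacked a difference of 2-fold at 4 h and were higher at 12 and 24 h.

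Of the feedback genes, Tnfaip3 codes for A20, which edits ubiquitin chains on signalling proteins and so shuts the pathway off. It read 581.6, 534.3 and 368.8 on the gamendazole arrays and 309.9, 659.8 and 409.9 on the lonidamine arrays, against 142.9, 133.9, 194.6 and 183.3 on the vehicle arrays. No treated array overlapped with a vehicle array. The ratio to same-hour vehicle was 4.34, 2.75 and 2.01 with gamendazole and 2.31, 3.39 and 2.24 with lonidamine.

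Ripk2 codes for a kinase that carries signals from the NOD receptors towards NF-kB. It read 618.2, 1429.3 and 773.4 on the gamendazole arrays and 381.5, 1382.6 and 1305.3 on the lonidamine arrays, against 53.9, 82.0, 90.4 and 97.6 on the vehicle arrays. The lowest treated array, lonidamine 4 h, was still far above the highest vehicle array. The ratio to same-hour vehicle was 7.54, 15.8 and 7.92 with gamendazole and 4.65, 15.3 and 13.4 with lonidamine, the widest of the 10 genes at 12 and 24 h with either drug.

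Birc3, which codes for the ubiquitin ligase cIAP2 and is a textbook NF-kB target, read 1047.6, 1214.9 and 1054.3 on the gamendazole arrays. It read 1075.0, 1421.9 and 1213.2 on the lonidamine arrays, against 1164.4, 1131.3, 992.3 and 1035.9 on the vehicle arrays. The groups overlapped, and ratios to same-hour vehicle lay between 0.926 and 1.43.

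**Figure D2:**
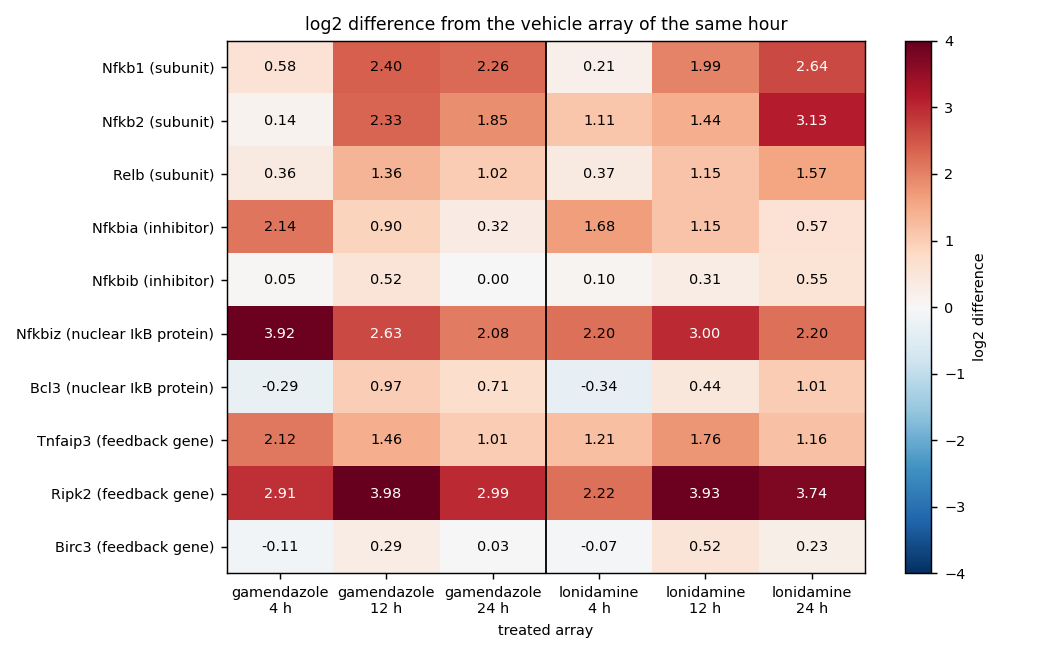
Log2 difference of each treated array (columns, gamendazole then lonidamine, by hour) from same-hour vehicle for the 10 genes (rows, by role), red for higher and blue for lower. Nfkbia falls off from left to right within each drug (2.14 to 0.32 with gamendazole, 1.68 to 0.57 with lonidamine), while Nfkb1 is lowest in the 4 h columns (0.58 and 0.21).

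Counted over the hours, 4, 6 and 6 of the 10 genes were at least 2-fold above the vehicle array of 4, 12 and 24 h with gamendazole, where 2.7%, 5.85% and 6.43% of all tested probe sets were. With lonidamine 4, 7 and 7 genes were, where 1.76%, 3.43% and 5.36% of all tested probe sets were. None of the 10 was at least 2-fold lower at any hour, where 1.91%, 2.64% and 2.5% of probe sets were with gamendazole and 1.23%, 1.68% and 2.35% with lonidamine. Between the 6 pairs of vehicle arrays, under the same condition that the brighter array reach 116.2 units, Nfkb1 differed by 2-fold or more between 4 h and 0 h, where 2.91% of all probe sets did. None of the 10 genes did so in the other 5 pairs, where 2.26% to 2.66% of all probe sets did. Nfkb2, 2.21-fold apart between its highest and lowest vehicle arrays, lay under that brightness. At 4 h the genes past 2-fold over same-hour vehicle with gamendazole were Nfkbia, Nfkbiz, Tnfaip3 and Ripk2, and no subunit was among them. With lonidamine the same 4 genes were past 2-fold at 4 h, and Nfkb2, at 2.16-fold, was not counted because its brighter array lay under the median signal of 116.2 units. At 12 and 24 h all 3 subunits were past 2-fold with both drugs. Nfkbia was past 2-fold at 12 h with lonidamine only, and at 24 h with neither drug. Against the median of the 4 vehicle arrays, Nfkb1 on gamendazole 4 h (2.40-fold) and Nfkbia on gamendazole 12 h (2.01-fold) were also past 2-fold. Tnfaip3 on lonidamine 4 h (1.91-fold), Relb on gamendazole 24 h (1.67-fold) and Bcl3 on lonidamine 24 h (1.63-fold) were then under it. With that baseline the count of 34 over the 6 arrays became 33.

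The averaged comparison asked whether a drug changed a gene over the 3 hours as a whole. limma was fitted to 9 arrays, leaving out vehicle 0 h, with terms for treatment and for hour, so that the hours stood in for replicates. With gamendazole 4 of the 10 genes rose and none fell, where 3.48% of all tested probe sets rose and 0.473% fell. Ripk2 was 9.81-fold higher (log2 difference 3.29 ± 0.31, SE, adjusted p = 0.00182 with limma). Nfkbiz was 7.34-fold higher (2.88 ± 0.39, limma adjusted p = 0.00578). Tnfaip3 was 2.88-fold higher (1.53 ± 0.24, limma adjusted p = 0.0110) and Nfkb1 was 3.37-fold higher (1.75 ± 0.39, limma adjusted p = 0.0376). All 3 gamendazole arrays were above their vehicle array for each of these. Ripk2 and Nfkbiz passed the filter through treated arrays alone, so their entry to the tests of either drug depended on the arrays where they were high.

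The other subunits and the inhibitors missed the threshold with gamendazole. Nfkbia averaged 2.17-fold higher (limma adjusted p = 0.0599), Relb 1.88-fold (0.0762) and Nfkb2 2.71-fold with an SE of 0.50 on the log2 scale (0.146). These 3 were among the 7 genes with an unadjusted p under 0.05, which 20% of all tested probe sets reached. The brightest Bcl3 probe set differed by 0.46 on the log2 scale (limma adjusted p = 0.422) and the second by 1.26 (0.142). Nfkbib differed by 0.19 and Birc3 by 0.07, with 95% intervals of -0.12 to 0.51 and -0.19 to 0.33.

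With lonidamine 3 of the 10 genes rose and none fell, where 0.769% of all tested probe sets rose and 0.0114% fell. These were Ripk2, at 9.84-fold (3.30 ± 0.31, SE, limma adjusted p = 0.00488), Nfkbiz, at 5.53-fold (2.47 ± 0.39, adjusted p = 0.0288), and Tnfaip3, at 2.599-fold (1.38 ± 0.24, adjusted p = 0.0392). Nfkb1 averaged 3.06-fold higher and Relb 2.04-fold higher, both with a limma adjusted p of 0.109. Nfkbia averaged 2.19-fold higher (adjusted p = 0.118) and Nfkb2 3.72-fold higher (0.136). Of the 10 genes, 8 had an unadjusted p under 0.05, which 12.7% of all tested probe sets reached. The brightest Bcl3 probe set differed by 0.37 (adjusted p = 0.670) and the second by 1.57 (0.154), while Nfkbib differed by 0.32 and Birc3 by 0.22 on the log2 scale. Over the 10 genes the median log2 difference was 1.28 with gamendazole and 1.25 with lonidamine, against -0.03 and -0.01 over all tested probe sets. The 2 comparisons share the vehicle arrays.

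These calls depended on the 12 h arrays, on the filter for low signal and on the variance trend. Without the 12 h arrays, with no filter on low signal, or without the variance trend, 0 of the 10 genes passed with either drug, with 5 to 7 genes at an unadjusted p under 0.05 in each case. Over all probe sets 0 passed with either drug without the 12 h arrays or with no filter. Without the trend 28 probe sets passed with gamendazole and 2 with lonidamine, so the loss was not particular to these genes. Without the 24 h arrays Ripk2 alone passed with lonidamine, where 19 probe sets did. Without the 4 h arrays 6 genes passed with each drug, Nfkb2 and Relb among them, where 1646 probe sets passed with gamendazole and 600 with lonidamine. The limma call of Nfkb1 with gamendazole was lost without the 24 h arrays (adjusted p = 0.180) and with hybridisation run in place of hour (0.144), and it held in 4 of 12 alternatives (0.00163 to 0.460 over them). With gamendazole, Ripk2 and Tnfaip3 passed in 9 of 12 and Nfkbiz in 8. With lonidamine, Ripk2 passed in 8, Nfkbiz in 5 and Tnfaip3 in 3. The vehicle signals of Nfkbiz lay near the floor: with the floor raised to the pooled 50th percentile its log2 difference became 1.62 with gamendazole (limma adjusted p = 0.113, against 0.00408 to 0.184 over the 12) and 1.22 with lonidamine (0.347, against 0.00537 to 0.512 over the 12).

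**Figure D3:**
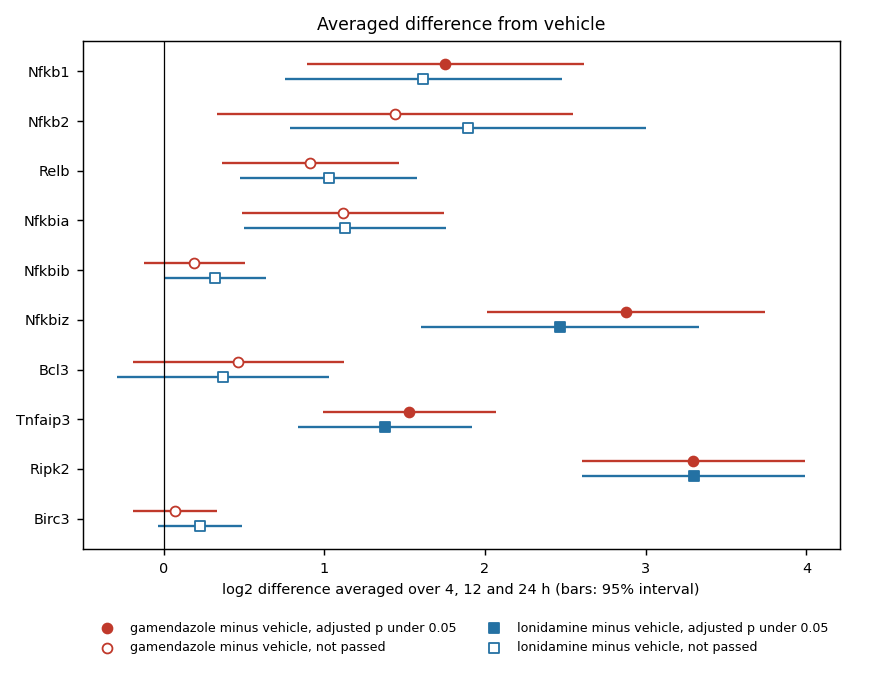
Log2 difference from vehicle averaged over 4, 12 and 24 h for each gene, red circles for gamendazole and blue squares for lonidamine, with 95% intervals from limma as bars; filled symbols passed an adjusted p of 0.05. The intervals of Ripk2, Nfkbiz, Tnfaip3, Nfkb1, Nfkb2, Relb and Nfkbia lie clear of 0 with both drugs, whether or not the gene passed. Those of the brightest Bcl3 probe set and of Birc3 span 0 with both drugs, and that of Nfkbib does with gamendazole. The second Bcl3 probe set, not drawn, has intervals of 0.30 to 2.21 with gamendazole and 0.61 to 2.52 with lonidamine.

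No difference between gamendazole and lonidamine passed the test on these genes. In the same fit 0 of the 10 genes and 0 of the 17549 probe sets differed between the 2 treatments (limma), where 0% is the background. At an unadjusted p under 0.05 there were 776 probe sets and none of the 10 genes. The 1.33-fold higher Nfkbiz with gamendazole had a log2 interval of -0.45 to 1.27, and the 0.729-fold Nfkb2 one of -1.56 to 0.65. For Ripk2 the difference was -0.00 with an interval of -0.70 to 0.69, and for Nfkbia it was -0.01 with an interval of -0.64 to 0.62. Differences within those intervals remain compatible with the data of 3 arrays a treatment, and the doses were 6 and 25 mg/kg.

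Each treated array was also set against the 4 vehicle arrays, with all 3 residual degrees of freedom coming from vehicle arrays. Each call by hour therefore rests on 1 treated array, and the spread among treated animals was not measured. With gamendazole 3, 6 and 4 of the 10 genes were higher at 4, 12 and 24 h, where 1.05%, 4.91% and 5.69% of all probe sets were higher. With lonidamine 0, 4 and 5 were higher, where 0.0513%, 1.28% and 5.03% of all probe sets were higher. None of the 10 was lower on any array, where 0.103%, 2.85% and 4.09% of probe sets were with gamendazole and 0.0171%, 0.142% and 1.98% with lonidamine. On gamendazole 4 h the higher genes were Nfkbiz (limma adjusted p = 0.00773), Ripk2 (0.0117) and Tnfaip3 (0.0229), and Nfkbia had an adjusted p of 0.0721. Nfkb1 passed on the 12 h and 24 h arrays of both drugs, with limma adjusted p between 0.00876 and 0.0469. Nfkb2 passed on gamendazole 12 h (0.0201) and lonidamine 24 h (0.0200), and Relb on gamendazole 12 h (0.0331). Nfkbiz, Tnfaip3 and Ripk2 passed on all 12 h and 24 h arrays of both drugs, Ripk2 with limma adjusted p between 0.000644 and 0.00200. Nfkbia, Nfkbib, Bcl3 by its brightest set, and Birc3 passed on none. The second Bcl3 probe set, which is outside these counts, passed on gamendazole 12 h (0.0230) and lonidamine 24 h (0.0259). The count of 22 calls over the 6 arrays became 21 without vehicle 0 h, 18 without vehicle 4 h, 14 without vehicle 12 h and 13 without vehicle 24 h. On vehicle 0 h Nfkbiz was under the floor and entered at 37.1. Nfkb2, Nfkbiz and Ripk2 passed the filter through treated arrays alone, so their entry to these tests depended on the arrays where they were high.

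The change of the treated arrays from 4 to 24 h put the subunits and the inhibitors side by side. The 24 h arrays were in hybridisation run 3 and the 4 h arrays in runs 1 and 2, so hour and run cannot be told apart here. The fit held no vehicle arrays. From 4 to 24 h the vehicle signal went from 192.4 to 99.6 for Nfkb1 and from 144.9 to 261.5 for Nfkbia. None of the 10 genes passed, where 1.45% of all tested probe sets rose and 0.245% fell (limma, 6 treated arrays, drug as a factor, 2 residual degrees of freedom). Of the 10, 5 had an unadjusted p under 0.05, which 13.6% of all tested probe sets reached. Nfkb1 was 2.15-fold higher at 24 h than at 4 h (log2 difference 1.11 ± 0.23, SE, limma adjusted p = 0.0684), Nfkb2 4.29-fold higher (2.10 ± 0.51, 0.103) and Ripk2 2.07-fold higher (1.05 ± 0.29, 0.153). Nfkbia differed by -0.61 ± 0.22 (adjusted p = 0.277) and Nfkbiz by -1.22 ± 0.46 (0.290). The third subunit, Relb, differed by 0.25 ± 0.24 (limma adjusted p = 0.739) and the other inhibitor, Nfkbib, by 0.18 ± 0.18 (0.753). With 12 h in place of 24 h, an alternative chosen after seeing the data, 0 of the 10 genes and 0 probe sets passed in limma, with 6 genes and 1398 probe sets at an unadjusted p under 0.05. Of the 12 receptors and adaptors tested, 3 were higher at 24 h than at 4 h by the same test, with a list median of 0.86, against a median of -0.02 over all probe sets. Leydig cell markers also differed over these hours: 2 of the 7 tested fell between 4 and 24 h and the list's median was -1.73, and their summed signal ran from 5064.2 to 15263.3 on gamendazole arrays and from 6173.9 to 8597.1 on lonidamine arrays, against 8329.2 to 10689.2 on vehicle arrays. Macrophage and leukocyte markers had a median of 0.91 from 4 to 24 h and endothelial markers one of 0.87, with none of 13 and none of 4 passing, and 1 of 5 peritubular markers, Des, was higher at 24 h (2.86-fold, limma adjusted p = 0.0485). The part of these cells in the changes of the NF-kB genes was not tested.

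Over the 10 arrays the correlations between the genes followed the roles only in part, and no grouping of the genes was computed. Log2 signals of Nfkbiz and Tnfaip3 correlated at r = 0.962, of Nfkb1 and Relb at 0.959, of Nfkb1 and Ripk2 at 0.949, and of Nfkbia and Tnfaip3 at 0.930. Tnfaip3 also correlated with Ripk2 at 0.943, with Relb at 0.845 and with Nfkb1 at 0.835. Nfkbia correlated with Nfkb2 at 0.404 and with Bcl3 at 0.250. These values describe 10 arrays that share their 4 vehicle arrays and differ in treatment. Among 10518 other tested genes, the 5 most like Nfkbia over the arrays were Spin4 (r = 0.9749), Snx18 (0.961), Fos (0.959), Irf2bpl (0.950) and Mideas (0.948). The 5 most like Nfkb2 were Sys1 (0.964), Runx1 (0.946), Bcl2a1 (0.945), Cldn12 (0.945) and Plscr1 (0.944). No gene was in both sets of 5.

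Beyond the 10 genes, other members of the pathway were tested in the same averaged fit. Of the remaining Rel and IkB family genes only Rela, the p65 subunit, was tested, and it differed by 0.33 with gamendazole and 0.37 with lonidamine on the log2 scale (limma adjusted p = 0.277 and 0.370). Of 7 tested genes listed with the IkB kinase (IKK) complex and upstream kinases, 1 rose with gamendazole and 0 with lonidamine. The medians were 0.02 and 0.01. The tested genes include Chuk and Ikbkb, and also Tab1 and Tab2, which are adaptors and not kinases. Ikbkg and Ikbke had no probe set by symbol. The gene that rose was Chuk, IKK alpha, at 1.82-fold (0.87 ± 0.15, limma adjusted p = 0.0151), with 0.71 in lonidamine (0.0689).

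Of 12 tested receptors and adaptors that feed the pathway, 2 rose with gamendazole and 1 with lonidamine, and the medians were 0.68 and 0.42. Tnfrsf1a, the main receptor of tumour necrosis factor, was 5.03-fold higher with gamendazole (limma adjusted p = 0.00653) and 4.31-fold higher with lonidamine (0.0277). Il1r1, the signalling receptor of interleukin-1, was 4.77-fold higher with gamendazole (0.0182) and 3.22-fold with lonidamine (0.110). Of 3 tested ligands 1 rose with each drug: Il1a was 8.02-fold higher with gamendazole (limma adjusted p = 0.00203) and 8.50-fold higher with lonidamine (0.00488), whereas Il1b differed by 0.89 and 0.82 on the log2 scale (0.300 and 0.497).

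Of 7 other tested brakes on the pathway, 1 rose with gamendazole and 0 with lonidamine, and the medians were -0.02 and 0.02. Tnip1, an A20 partner, was 2.59-fold higher with gamendazole (limma adjusted p = 0.0368) and 2.31-fold with lonidamine (0.118), whereas the deubiquitinase Cyld differed by -0.05 and -0.07. Of 6 tested survival genes, 2 rose with gamendazole and 0 with lonidamine, with medians of 0.63 and 0.50. Gadd45b, a stress-inducible survival gene, was 7.76-fold higher with gamendazole in the fit (limma adjusted p = 0.0151). On 3 of the 4 vehicle arrays it was under the floor and raised to it, so its entry to the test depended on treated arrays. Sod2, the mitochondrial superoxide dismutase, was 2.27-fold higher (0.0461). Birc2, the close relative of Birc3, differed by -0.07 and -0.13 on the log2 scale.

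**Figure D4:**
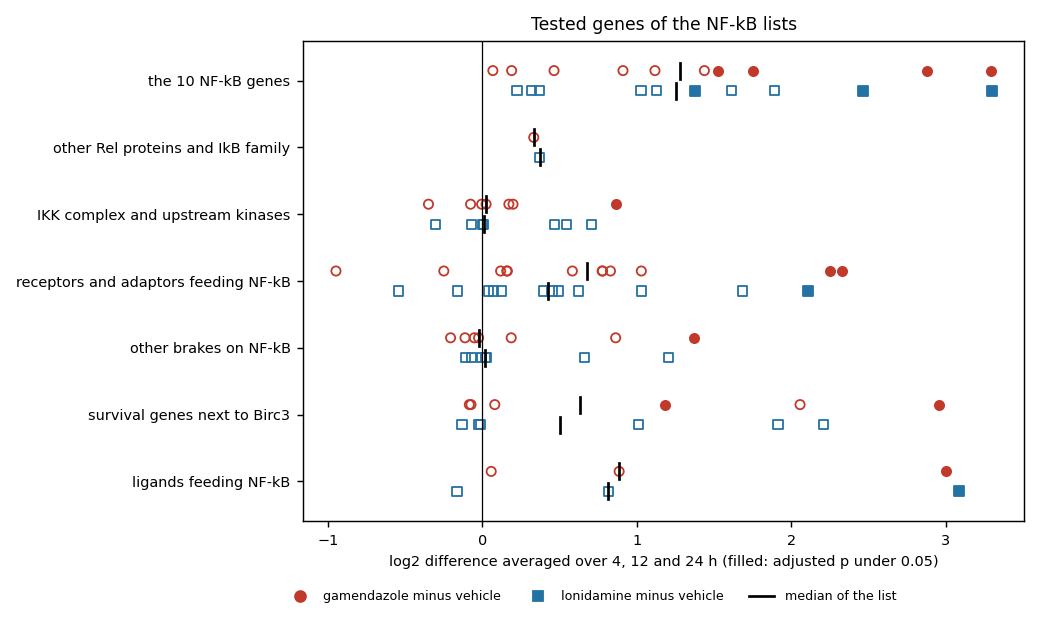
Averaged log2 difference from vehicle of each tested gene in 7 lists of NF-kB genes (rows), red circles for gamendazole and blue squares for lonidamine; black bars are list medians and filled symbols passed an adjusted p of 0.05 in limma. The 10 genes have medians of 1.28 and 1.25. The list of the IKK complex and upstream kinases has medians of 0.02 and 0.01, and the other brakes of -0.02 and 0.02.

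Markers of macrophages and leukocytes, cells that use NF-kB heavily, were measured beside these results. Of 13 tested markers of 16, 2 rose with gamendazole and 0 with lonidamine, and the medians were 0.56 and 0.47. C1qa was 1.83-fold higher with gamendazole (limma adjusted p = 0.0280) and S100a9 4.41-fold in the fit (0.0310), with 2 of the 4 vehicle arrays under the floor and raised to it. S100a9 read at most 53.7 on vehicle arrays, so it passed the filter through treated arrays alone. The summed signal of the 16 ran from 13018.9 to 15252.4 on gamendazole arrays and from 12126.7 to 15686.8 on lonidamine arrays, against 12672.1 to 13001.2 on vehicle arrays. The 12 h and 24 h arrays of both drugs lay above every vehicle array, and the lonidamine 4 h array had the lowest sum of all 10. Aif1, the brightest of them, went the other way, with a log2 difference of -0.15 with each drug (limma adjusted p = 0.134 and 0.232). It read 7818.9, 7343.0 and 7232.8 on the gamendazole arrays and 7601.9, 7654.5 and 7104.8 on the lonidamine arrays, against 7723.3 to 8340.3 on the vehicle arrays. The sum without Aif1 was not planned in advance. Without it the sum was 5200.0, 7909.4 and 7973.6 at 4, 12 and 24 h on the gamendazole arrays and 4524.8, 6255.8 and 8582.0 on the lonidamine arrays, against 4604.6 to 4948.8 on the vehicle arrays. With and without Aif1, the gamendazole 4 h sum also lay above every vehicle sum, and the lonidamine 4 h sum lay below every vehicle sum. S100a8 and Itgam lay under the floor on 4 and 2 vehicle arrays. Of the 5 tested Sertoli cell markers Inhbb fell with gamendazole (log2 difference -1.30, limma adjusted p = 0.0119), and of the 5 peritubular markers Tagln rose with gamendazole (2.36-fold, 0.0178). The summed peritubular signal was 2039.4 to 2430.3 on gamendazole arrays and 1985.3 to 2864.3 on lonidamine arrays, against 1802.4 to 1946.8 on vehicle arrays. None of 4 tested endothelial markers passed with either drug. The part of these cells in the NF-kB results was not tested.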

How the data were processed

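RNA from rat testis was measured on 10 Affymetrix Rat230_2 arrays. The authors deposited 1 linear intensity value for each probe set, made with GCOS 1.1 per the submitters' processing notes. By the values, each array had been scaled to the same trimmed mean of 500.2 units with 2% trimmed at each end. The deposited instrument records, a file of other text settings, were used only to group arrays into 3 hybridisation runs. This grouping is a reading of those records, and the labels name no batch.

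Of 31099 probe sets, 57 controls were left out. Values under the pooled 25th percentile (37.1) were raised to it, and log2 was taken. A probe set was tested if at least 2 arrays reached the pooled median of 116.2, which left 17549. The platform annotation gave 1 symbol to 20826 probe sets. It gave several to 436, left unnamed here, and did not list 9780.

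Tests used limma 3.58.1 in R 4.3.3 with a variance trend, Benjamini-Hochberg adjustment over all tested probe sets and a threshold of 0.05. The averaged fit had 4 residual degrees of freedom, the fit of treated arrays by hour had 2, and that of each treated array against vehicle had 3. Hours, drugs or vehicle arrays stood in for replicates, and the p-values measure only the spread among these arrays, part of which may be technical. Precision is limited by how few arrays there were: averaged log2 differences had a median 95% interval of 0.40 on each side. The fits were tested on simulated data first. Counts of genes past 2-fold against same-hour vehicle carried no test and required the brighter array to reach 116.2 units.

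Genes outside the 10 are named where an averaged contrast passed and are otherwise given as counts per list. Rela, Il1b, Cyld, Birc2, Des and Aif1 were added after their values were seen. The 10 genes and all lists were chosen with earlier results of these data known. Alternatives covered the floor, the filter, the scaling, the model terms, the variance trend and left-out arrays. Sequences were not used here.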

Additional observations from a re-analysis of the deposited data

How the results depend on the processing

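With gamendazole the count of 4 genes higher than vehicle became 2 with the floor at the pooled 50th percentile and 0 with no filter or without the variance trend, and leaving out an hour gave 0 to 6. With lonidamine the count of 3 became 0 with that higher floor, with no filter and without the trend, 1 with the filter at the 75th percentile or with no hour in the model, and 0 to 6 when an hour was left out. Both drugs gave 6 when the 4 h arrays, and 0 when the 12 h arrays, were left out. Over all probe sets, the 693 calls with gamendazole became 247 with the higher floor, 0 with no filter, 372 with no hour in the model, 205 with hybridisation run in place of hour, 28 without the trend, 1162 without gamendazole 4 h, and 0 to 1646 when an hour was left out. The 137 with lonidamine became 1, 0, 50, 2 and 225 with the higher floor, no filter, no hour, no trend and no gamendazole 4 h. They became 55 with the stricter filter, 89 with cyclic loess and 0 to 600 when an hour was left out. Between the drugs the 0 probe sets became 8 without gamendazole 4 h and 0 to 2 when an hour was left out. From 4 to 24 h the 297 became 0 with the higher floor, no filter, no trend, or 12 h in place of 24 h. The 22 calls by array became 6 with no filter, 8 without the trend and 13 to 21 when a vehicle array was left out, and the 4770 over all probe sets became 2352 without the trend and 2216 to 3592 when a vehicle array was left out. The cause was not tested.

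No reversal touched a called value. Between the drugs, the log2 difference became -0.0072 for Nfkb1 and -0.14 for Tnfaip3 with the run in the model, and -0.18 for Nfkbiz and -0.19 for Tnfaip3 without gamendazole 4 h. Leaving out an hour gave, between the drugs, -0.25 to 0.80 for Nfkbiz, -0.23 to 0.38 for Tnfaip3, -0.25 to 0.11 for Nfkbia, -0.12 to 0.29 for Bcl3, -0.28 to 0.10 for Relb, -0.30 to 0.084 for Nfkbib and -0.35 to 0.37 for Ripk2. For Birc3 with gamendazole it gave -0.043 to 0.16. With 12 h in place of 24 h, chosen after seeing the data, Nfkbiz became 0.18 and Tnfaip3 0.48. Leaving out a vehicle array gave -0.030 to 0.052 for Nfkbib and -0.094 to 0.10 for Bcl3 on gamendazole 4 h, and -0.073 to 0.0037 for Birc3 on gamendazole 24 h. On lonidamine 4 h it gave -0.15 to 0.051 for Bcl3 and -0.045 to 0.032 for Birc3.

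Quantile and loess scaling moved the median of all probe sets by under 0.05 and turned the sign of none of the 10 genes, but both took the lonidamine count to 2, since Tnfaip3 no longer passed (limma adjusted p = 0.0586 and 0.0612). The labels carry no replicate numbers, and the averaged fit matches arrays by hour.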
